A study of Homo sapiens with 6 samples.

Results

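The insulin-like growth factor (IGF) axis was examined as 10 genes in RNA sequencing libraries of T47D cells: the receptors IGF1R, INSR and IGF2R, the binding-protein genes IGFBP2, IGFBP3, IGFBP4, IGFBP5 and IGFBP6, and the receptor substrates IRS1 and IRS2. They were taken by symbol from a deposited count table of 58735 genes, each matched 1 row, and all 10 passed the filter on low counts, which kept 17337 genes. T47D, a long-established luminal line from human breast cancer, carries estrogen and progesterone receptors. The series compares 3 control libraries, coded CK, with 3 libraries coded CQ, whose treatment the design text does not name. The series title and an extraction protocol worded alike for both groups point to fine airborne particulate matter (PM2.5) with RNA taken at 48 h, and "exposed" is used below in that sense. No source used here gives a dose. No genetic change is stated for either group, so the line and its culture are what the groups share.

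IGF1 and IGF2 signal through the receptor tyrosine kinase IGF1R, and the closely related insulin receptor, encoded by INSR, binds insulin and, in its short isoform, IGF2. Active receptors phosphorylate the docking proteins IRS1 and IRS2, which recruit PI3-kinase and so lead to AKT and mTORC1. IGF2R carries no kinase: it takes IGF2 to lysosomes and also sorts lysosomal enzymes that bear mannose 6-phosphate. Secreted IGF-binding proteins hold the ligands and set how much reaches the receptors. In luminal breast cancer cells estrogen is known to raise IGF1R, IRS1 and IGFBP4.

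Depth was even: total counts ran from 30970218 to 36878525 per library. All 9 luminal epithelial markers checked were detected. Their summed level was 19209 to 21079 CPM (read counts scaled to library size, with TMM factors) in controls and 8122 to 10136 CPM in exposed libraries, most of it the keratins KRT8, KRT19 and KRT18. The 3 keratins, ESR1, PGR and FOXA1 were lower, whereas GATA3, EPCAM and CDH1, at log2 fold changes of 0.04, 0.02 and 0.08, did not pass. ESR1, which encodes the estrogen receptor, stood at 167 ± 12.2 and 67.1 ± 3.45 CPM (SD, n = 3 per group). Of 14 markers of blood, vessel and stromal cells, 10 averaged under 1 CPM, and their sum was 66.8 to 75.5 CPM in controls and 78.5 to 82.2 CPM in exposed libraries, most of it COL1A1. The part of these marker shifts in the results below was not tested.

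Promoter windows from RefSeq (GRCh38.p14), each holding 250 bases before and 50 after an annotated start, were found for all 10 genes, with 3 windows for IGFBP2. Those of IGF2R, IRS2, IRS1 and IGFBP5 are printed 5′ to 3′ on the gene's strand because these genes show the contrasts described below: a receptor that rose, the substrate that rose beside the substrate that did not, and the binding protein with the steepest fall. Capitals mark every match, on either strand, to 6 motifs: GCGTG, the core bound by the aryl hydrocarbon receptor, TGACNNNGC, an antioxidant response core, CACGTG, the E-box, TCACGTGA, an E-box with the flanks of the lysosomal CLEAR element, TGATGNAA, a C/EBP-ATF element, and GGTCA followed after 3 bases by TGACC, an estrogen response element. Each TCACGTGA also contains a CACGTG.
IGF2R, chr6:159968832-159969131, plus strand: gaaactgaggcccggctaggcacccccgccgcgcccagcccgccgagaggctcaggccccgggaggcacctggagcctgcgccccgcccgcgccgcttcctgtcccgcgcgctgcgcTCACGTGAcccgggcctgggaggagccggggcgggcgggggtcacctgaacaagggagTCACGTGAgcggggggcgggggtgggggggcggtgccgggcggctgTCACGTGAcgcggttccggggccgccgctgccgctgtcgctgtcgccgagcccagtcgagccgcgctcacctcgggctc
IRS2, chr13:109786534-109786833, minus strand: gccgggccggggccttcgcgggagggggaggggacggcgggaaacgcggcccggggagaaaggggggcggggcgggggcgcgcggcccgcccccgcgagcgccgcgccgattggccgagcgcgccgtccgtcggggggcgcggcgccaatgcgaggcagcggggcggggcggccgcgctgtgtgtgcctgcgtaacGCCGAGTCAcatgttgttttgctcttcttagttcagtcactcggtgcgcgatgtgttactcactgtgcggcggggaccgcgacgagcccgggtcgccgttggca
IRS1, chr2:226799771-226800070, minus strand: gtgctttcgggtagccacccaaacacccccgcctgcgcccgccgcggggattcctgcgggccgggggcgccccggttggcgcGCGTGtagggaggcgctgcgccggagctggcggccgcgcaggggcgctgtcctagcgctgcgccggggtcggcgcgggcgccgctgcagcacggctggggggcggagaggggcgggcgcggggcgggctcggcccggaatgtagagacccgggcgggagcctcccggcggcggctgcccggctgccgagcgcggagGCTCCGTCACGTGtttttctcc
IGFBP5, chr2:216695500-216695799, minus strand: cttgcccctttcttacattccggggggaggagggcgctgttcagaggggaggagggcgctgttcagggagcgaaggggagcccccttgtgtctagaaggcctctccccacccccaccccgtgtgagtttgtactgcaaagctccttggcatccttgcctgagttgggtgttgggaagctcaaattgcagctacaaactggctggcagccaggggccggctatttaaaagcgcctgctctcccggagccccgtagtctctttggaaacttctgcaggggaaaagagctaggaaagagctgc

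The IGF2R window held TCACGTGA at 3 positions, beginning at -133, -75 and -29 from the start. Of 35116 windows of 300 bases, 344 (0.98%) held this motif at least once and 4 (0.011%) held it 3 or more times. The 6 motifs were chosen with the results known, and TCACGTGA after the IGF2R window had been read. The cut of 3 equals the number in the IGF2R window, which is itself among the 4. These shares therefore do not measure how unexpected its matches are. The IRS2 window held 1 match to TGACNNNGC, read on the other strand, at -54. The IRS1 window held GCGTG at -168, a match to TGACNNNGC at 29 and an overlapping CACGTG at 36. TGACNNNGC was in 13.3% of all windows, GCGTG in 36.5% and CACGTG in 7.26%. IGF1R had 4 matches to GCGTG, IGFBP3 had 3, and 1 of the IGFBP2 windows had 1. Of all windows 4.30% held GCGTG 3 or more times. The IGF1R and IGFBP3 windows were 79.7% and 74.7% G or C, against a median of 58.7% over all windows. No match to any of the 6 motifs was found in the windows of IGFBP5, IGFBP4, IGFBP6 or INSR, and none of the members' windows held the estrogen response element (0.057% of all windows) or TGATGNAA (3.62%). These are letter matches in short windows, and binding was not measured.

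Counts were compared with edgeR's quasi-likelihood test over all 17337 genes, with a threshold of 0.05 on the Benjamini-Hochberg adjusted p. Of the 10 genes, 3 rose (IRS2, IGF2R and INSR), 4 fell (IGFBP5, IGFBP4, IGFBP6 and IGF1R) and 3 did not pass (IRS1, IGFBP2 and IGFBP3). Over all genes tested 43.9% passed, 21.8% higher and 22.1% lower. In CPM the values of 8 members did not overlap between the groups, against 51.9% of all genes. The median log2 fold change was -0.16 over the members and -0.02 over all genes tested. Because these are whole cultures, fewer cells expressing a gene and less of its RNA per cell cannot be told apart.

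**Figure D1:**
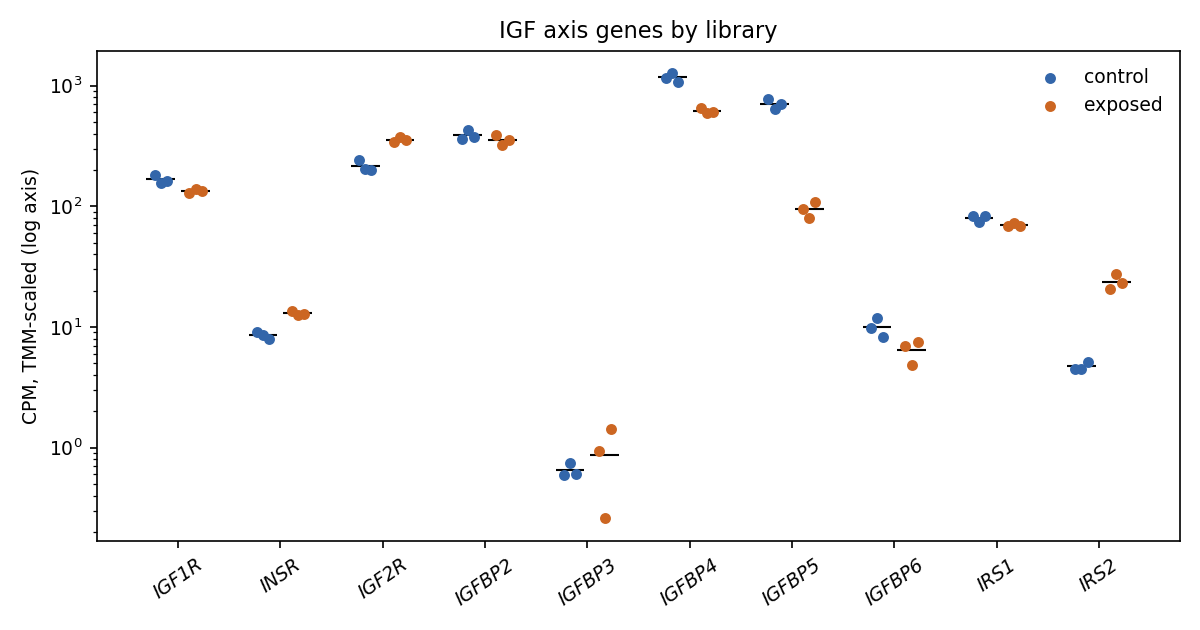
Level of each of the 10 genes in each library, in TMM-scaled CPM on a log axis, with controls in blue, exposed libraries in orange and black lines at the group means. IGFBP5 has means of 706 CPM in controls and 94.96 CPM in exposed libraries, IRS2 moves the other way, and the groups overlap for IGFBP2 and IGFBP3.

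Among the receptors, IGF1R fell while INSR and IGF2R rose. IGF1R (ENSG00000140443, chromosome 15, 98648539 to 98964530, plus strand) stood at 183, 155 and 163 CPM in control replicates 1 to 3 and at 130, 139 and 133 CPM in exposed replicates 1 to 3. All exposed values lay below all control values, by a small margin. The log2 fold change was -0.32 ± 0.08 (SE), adjusted p = 9.3e-04 by edgeR's quasi-likelihood test. INSR (ENSG00000171105, chromosome 19, 7112255 to 7294034, minus strand) was far less abundant, at 9.08, 8.49 and 7.93 CPM in controls and 13.5, 12.6 and 12.8 CPM in exposed libraries. The groups were again separate, and the rise was 1.53-fold (log2 0.61 ± 0.12, SE, adjusted p = 1.2e-04). Counts per gene cannot separate the short and long isoforms of this receptor.

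IGF2R (ENSG00000197081, chromosome 6, 159969099 to 160113507, plus strand) was at 242, 205 and 199 CPM in control replicates 1 to 3 and 343, 373 and 355 CPM in exposed replicates 1 to 3. The lowest exposed library was well above the highest control, and the rise was 1.66-fold (log2 0.73 ± 0.08, SE, adjusted p = 5.4e-09). The antisense gene AIRN, which overlaps IGF2R without sharing exonic bases, had 0 counts in the 6 libraries together, and the pseudogene AL353625.1, on the same strand and also without shared exonic bases, had 684, against 59404 for IGF2R.

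Levels between genes were compared in TPM, a share of the library's reads after division by gene length. Within a library IGF1R stood to INSR at 15.1, 13.7 and 15.4 in controls and at 7.22, 8.24 and 7.79 in exposed libraries, so that IGF1R remained the more abundant of these kinases by this measure. The log2 of this ratio was 0.93 lower in exposed libraries (means 3.88 ± 0.09 and 2.95 ± 0.10, SD, n = 3 per group; exact two-sided permutation p = 0.10). IGF1R and IGF2R were about level in controls, at ratios of 0.97, 0.97 and 1.05, and stood at 0.48, 0.48 and 0.48 in exposed libraries, a log2 difference of -1.05 (exact two-sided permutation p = 0.10, n = 3 per group). For 3 against 3 libraries 0.10 is the smallest p that can be reached, and it is also the value adjusted over the 3 ratios computed here. The separation of each ratio was fixed by the changes of its genes already given here, so these p-values add no support to those changes. The ratio of IGF1R to IGF2R was not among those planned. The deposited lengths equal the union of all annotated exons, and the ratios depend on them. With the length of the principal transcript, mean TPM of IGF1R was 7.60 times that of INSR in controls and 3.99 times in exposed libraries. Relative to IGF2R it was then 0.89 times as high in controls and 0.43 times in exposed libraries.

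**Figure D2:**
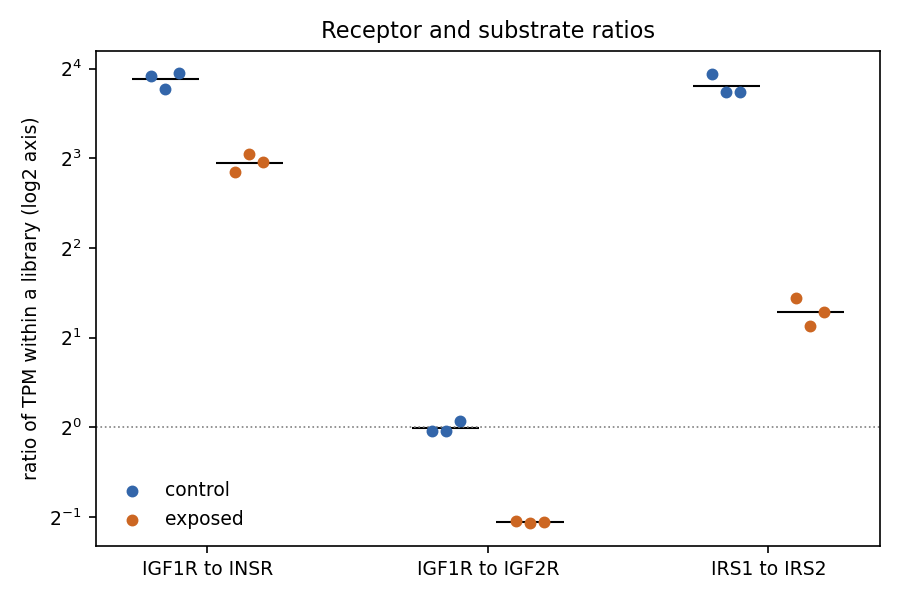
Ratio of the TPM of 2 genes within each library, on a log2 axis, with controls in blue, exposed libraries in orange, black lines at geometric means and a dotted line at equal levels. In all 3 ratios the exposed libraries lie below the controls, and with the deposited lengths IGF1R to IGF2R moves from about 1 to 0.48.

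Of the substrates IRS2 rose and IRS1 did not pass. IRS2 (ENSG00000185950, chromosome 13, 109752698 to 109786568, minus strand) had counts of 166, 157 and 187 in the controls and of 703, 847 and 840 in the exposed libraries, or 4.45, 4.52 and 5.13 against 20.7, 27.4 and 23.3 CPM. No library came near the other group. The rise was 5.05-fold (log2 2.34 ± 0.13, SE, adjusted p = 8.4e-16), and ranked 63 among the rises of all 17337 genes tested. An antisense gene shares 115 exonic bases with IRS2 and had 0 counts.

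IRS1 (ENSG00000169047, chromosome 2, 226731317 to 226799759, minus strand) was at 83.5, 73.9 and 83.7 CPM in controls and at 69.0, 73.4 and 69.3 CPM in exposed libraries. In CPM the groups did not overlap, but control replicate 2 and exposed replicate 2 nearly met. In TPM the groups did overlap, with these libraries at 21.6 and 22.5. The log2 fold change of -0.19 ± 0.08 (SE) narrowly missed the threshold (adjusted p = 0.053 by edgeR's quasi-likelihood test), and without control replicate 2 it was -0.24 and passed (adjusted p = 0.0071; range over all settings 0.0071 to 0.20). The TPM ratio of IRS1 to IRS2 was 15.3, 13.4 and 13.3 in controls and 2.72, 2.19 and 2.43 in exposed libraries, a log2 difference of -2.52 (exact two-sided permutation p = 0.10, n = 3 per group). IRS1 was thus the more abundant substrate transcript in every library, by a much narrower margin in the exposed ones.

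**Figure D3:**
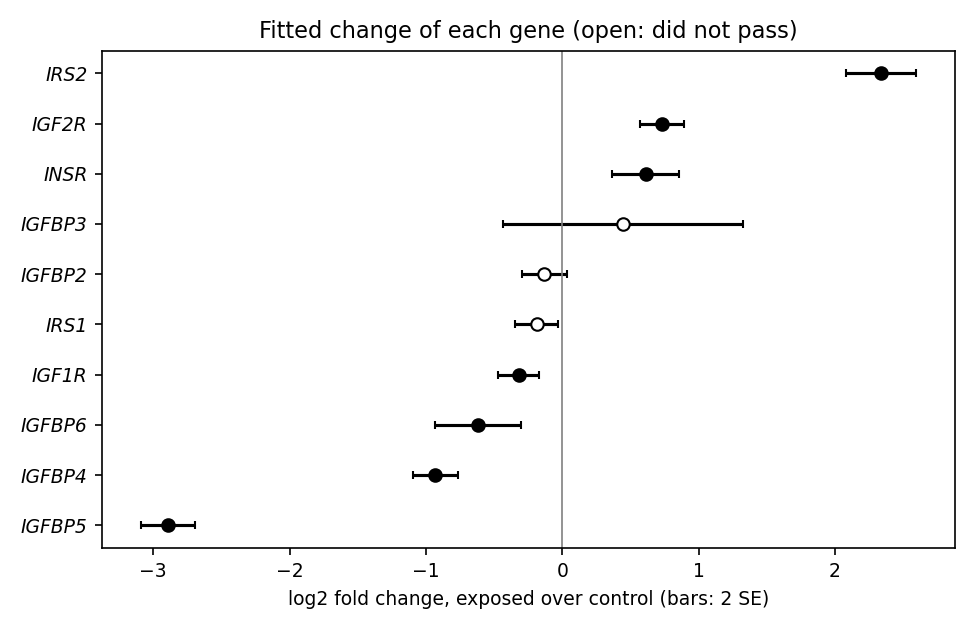
Fitted log2 fold change, exposed over control, of each gene with bars of 2 SE; filled points passed the threshold and open points did not. IGFBP5 (-2.89) and IRS2 (2.34) lie far from the other 8 genes, which are between -0.93 and 0.73, and the bar of IGFBP3 is the widest.

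Of the 5 binding-protein genes 3 fell, none rose and 2 did not pass. Over all genes tested 22.1% fell and 21.8% rose, and 5 genes are too few to set against these shares. IGFBP5 (ENSG00000115461, chromosome 2, 216672105 to 216695525, minus strand), a binding protein that also attaches to extracellular matrix, had the steepest fall. It was at 771, 647 and 701 CPM in control replicates 1 to 3 and at 95.8, 79.5 and 110 CPM in exposed replicates 1 to 3. The groups were widely separated, with a mean 7.43 times higher in controls by the fit (log2 -2.89 ± 0.10, SE, adjusted p = 2.8e-19), and ranked 35 among the falls of all 17337 genes tested. An antisense gene sharing 298 exonic bases with IGFBP5 had 4 counts in all 6 libraries together.

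IGFBP4 (ENSG00000141753, chromosome 17, 40443461 to 40457731, plus strand), which inhibits IGF action until the protease PAPP-A cleaves it, was the most abundant of the 10 genes in both groups. It was at 1167, 1274 and 1076 CPM in controls and at 651, 589 and 603 CPM in exposed libraries. The groups were separate and the log2 fold change was -0.93 ± 0.08 (SE, adjusted p = 6.1e-11). The group means were 1172 ± 99.4 and 615 ± 32.6 CPM for IGFBP4, beside 706 ± 62.5 and 94.96 ± 15.02 CPM for IGFBP5 (SD, n = 3 per group).

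IGFBP6 (ENSG00000167779, chromosome 12, 53097436 to 53102345, plus strand), which prefers IGF2 over IGF1, was low, at 9.86, 11.9 and 8.20 CPM in controls and 6.98, 4.88 and 7.57 CPM in exposed libraries. The groups did not overlap, although the lowest control and the highest exposed value were close. The log2 fold change was -0.62 ± 0.16 (SE, adjusted p = 0.0018).

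IGFBP2 (ENSG00000115457, chromosome 2, 216632828 to 216664436, plus strand) was at 359, 433 and 378 CPM in controls and at 391, 323 and 354 CPM in exposed libraries. These ranges overlapped, and the log2 fold change of -0.13 ± 0.08 (SE) did not pass (adjusted p = 0.20), with an interval of 2 SE from -0.30 to 0.03. IGFBP2 and IGFBP5 are neighbours that point toward each other, with 7668 bases between their annotated ends. The interval of IGFBP2 lies far from that of IGFBP5, which ran from -3.09 to -2.70.

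IGFBP3 (ENSG00000146674, chromosome 7, 45912245 to 45921874, minus strand), the main carrier of IGFs in blood, was barely present, with 22, 26 and 22 counts in controls and 32, 8 and 51 in exposed libraries. The exposed libraries lay on both sides of the controls. Its log2 fold change of 0.44 ± 0.44 (SE) did not pass (adjusted p = 0.44), and it was -0.07 without exposed replicate 3 and 0.87 without exposed replicate 2, so no direction is given.

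Summed over the 5 genes, binding-protein transcripts were at 2210 ± 89.4 TPM in controls and 1088 ± 17.3 TPM in exposed libraries (SD, n = 3 per group). IGFBP4 made up 72.7% ± 1.42 of this sum in controls and 74.8% ± 1.24 in exposed libraries. The share of IGFBP5 was 15.05% ± 1.89 in controls and 3.94% ± 0.56 in exposed libraries, and that of IGFBP2 11.2% ± 0.78 and 20.0% ± 0.66 (SD, n = 3 per group). The larger share of IGFBP2 came without a rise of its own. The sum and these shares rest on the deposited lengths, and IGFBP2 is the gene most affected, with 4767 bases of exon union against 1439 in its principal transcript. With principal lengths the shares of the group means were 57.5% and 51.0% for IGFBP4, 29.3% and 45.1% for IGFBP2 and 12.3% and 2.79% for IGFBP5, in controls and exposed libraries. The direction in which the IGFBP4 share moved thus depends on the length used.

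**Figure D4:**
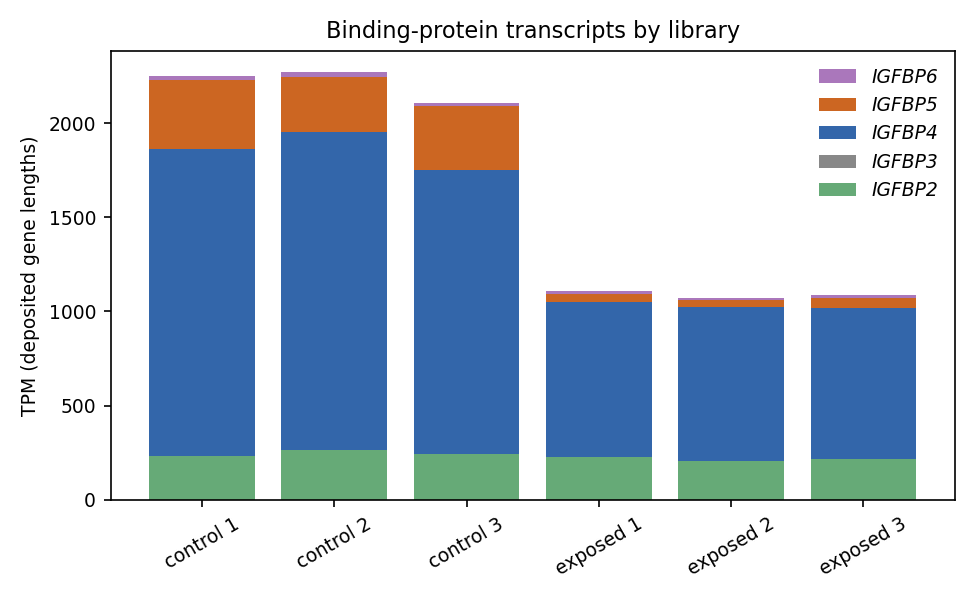
Stacked TPM of the 5 binding-protein genes in each library, computed with the deposited gene lengths. The bars reach 2107 to 2270 TPM in controls and 1072 to 1106 TPM in exposed libraries, the IGFBP5 segment shrinks, and IGFBP3 and IGFBP6 are too low to stand out.

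Ordered by TPM in controls, the 10 genes ran from IGFBP4 (1608 ± 91.6) through IGFBP5 (332 ± 37.8), IGFBP2 (247 ± 16.6), IGF2R (36.5 ± 4.50), IGF1R (36.3 ± 3.99), IRS1 (24.4 ± 2.44), IGFBP6 (22.4 ± 3.50), INSR (2.46 ± 0.18) and IRS2 (1.75 ± 0.17) to IGFBP3 (0.43 ± 0.04; SD, n = 3). The ranges of IGF2R and IGF1R overlapped, as did those of IRS1 and IGFBP6. In exposed libraries the order was IGFBP4 (813 ± 10.5), IGFBP2 (217 ± 10.6), IGF2R (58.4 ± 5.20), IGFBP5 (42.9 ± 6.20), IGF1R (28.1 ± 2.24), IRS1 (20.7 ± 1.64), IGFBP6 (13.96 ± 2.73), IRS2 (8.56 ± 1.60), INSR (3.62 ± 0.06) and IGFBP3 (0.55 ± 0.37; SD, n = 3), and no neighbours in that order had overlapping ranges. IGFBP5 went from rank 2 to rank 4, and IRS2 passed INSR. With principal lengths IGFBP2 stood above IGFBP5 in controls as well, and in exposed libraries the range of IRS2 (7.06 to 10.2 TPM) overlapped that of INSR (7.93 to 8.15 TPM), so the order of these genes depends on the length used.

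The ligands themselves had few counts. IGF2 (ENSG00000167244), a fetal growth factor, had counts of 251, 273 and 273 in the controls and of 106, 72 and 93 in the exposed libraries, with no overlap after scaling. It fell by 1.46 ± 0.17 on the log2 scale (SE, adjusted p = 2.4e-08). A second gene model of the same name shares 5144 exonic bases with IGF2, of 6979 in all, and had 11 counts. INS-IGF2, on the same strand, shares 1460 and had 0, and the antisense IGF2-AS shares 333 and had 114. The reads of these genes cannot be told apart with certainty, so the level of IGF2 is not known from these counts. IGF1 was listed at 1 count in exposed replicate 3 and 0 in the other libraries, and INS at 0 in all 6. A count of 0 allows up to 3 counts in a library, for counting error only.

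The other genes of the pathway were listed by role. Of 77 symbols, which matched 78 rows of the table, 66 were tested, 23 rose, 15 fell and 28 did not pass. These shares, 34.8% higher and 22.7% lower, stand beside 21.8% and 22.1% over all genes. The median log2 fold change was 0.07 over the list.

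Among ligands, other binding proteins and proteases 3 of 6 tested genes fell and none rose, beside 22.1% and 21.8% over all genes. Besides IGF2 the genes that fell were STC1 and STC2, stanniocalcins that inhibit the IGFBP protease PAPP-A. STC1 was at 39.8, 29.8 and 39.0 CPM in controls and 10.1, 6.01 and 11.1 CPM in exposed libraries (log2 -1.99 ± 0.23, SE, adjusted p = 2.8e-04), and STC2 had a log2 fold change of -0.61 ± 0.08. All exposed values of STC1 lay below its controls. The protease gene PAPPA itself had 4 to 12 counts per library and was not tested.

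Of 17 receptor adaptors and inhibitors tested, 4 rose and 4 fell, shares close to those over all genes (21.8% and 22.1%). The adaptor SHC1 rose by 0.51 ± 0.07 and the ubiquitin ligase CBL by 0.51 ± 0.08, whereas the adaptor CRKL was at -0.65 ± 0.08 (log2, SE). In the list of PI3-kinase, AKT and FOXO genes 9 of 17 rose and 3 fell, beside the same 21.8% and 22.1%. The regulatory subunits PIK3R1 and PIK3R3, which dock onto phosphorylated IRS proteins, were at -1.59 ± 0.11 and -0.99 ± 0.10, and the AKT-inhibited kinase GSK3B at 0.68 ± 0.08 (log2, SE). PIK3R1 was at 31.5, 25.2 and 33.2 CPM in controls and 9.69, 9.37 and 10.8 CPM in exposed libraries, again without overlap. PIK3R2 had 1 count in all libraries together and shares 3947 exonic bases with another gene model on its strand, so its level is not known from these counts.

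Of 15 genes listed under mTORC1, 6 rose and 4 fell, beside 21.8% and 22.1% over all genes. One of those that rose, RICTOR, encodes a subunit of the related complex mTORC2 and not of mTORC1. SESN2, a stress-induced inhibitor of mTORC1, rose by 1.20 ± 0.09, TSC1, another inhibitor, by 0.86 ± 0.08, and EIF4EBP1, a translation repressor that mTORC1 inactivates, by 0.83 ± 0.08 (log2, SE). The mTORC1 activator RHEB rose as well, by 0.78 ± 0.08, as did MLST8 by 0.50 ± 0.08 and RICTOR by 0.41 ± 0.12 (log2, SE). TSC2, the partner of TSC1, was lower at -0.26 ± 0.07. So were EIF4EBP2, a paralogue of EIF4EBP1, at -0.42 ± 0.07, and the mTORC1 inhibitor AKT1S1 at -0.20 ± 0.08. AKT1S1 passed narrowly (adjusted p = 0.040 by edgeR's quasi-likelihood test). For AKT1S1 and RICTOR the CPM values overlapped between the groups, and their calls were not followed gene by gene with libraries left out. The kinase gene RPS6KB1 was at -0.38 ± 0.11 (log2, SE). In the RAS and ERK list 3 of 9 rose and 1 fell, beside 21.8% and 22.1% over all genes. The kinase gene MAPK3 was at 0.53 ± 0.08 and NRAS at 0.52 ± 0.10 (log2, SE). The member that fell, HRAS, at -0.25 ± 0.09 (adjusted p = 0.021), lost its call without control replicate 2 or 3 or exposed replicate 2 or 3 (edgeR adjusted p from 0.052 to 0.12). Of the 2 tested genes for IGF2 mRNA-binding proteins IGF2BP3 rose, from 0.877 to 1.65 CPM on average, and its call ended without control replicate 1 or 3 or exposed replicate 2 (edgeR adjusted p from 0.057 to 0.15).

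**Figure D5:**
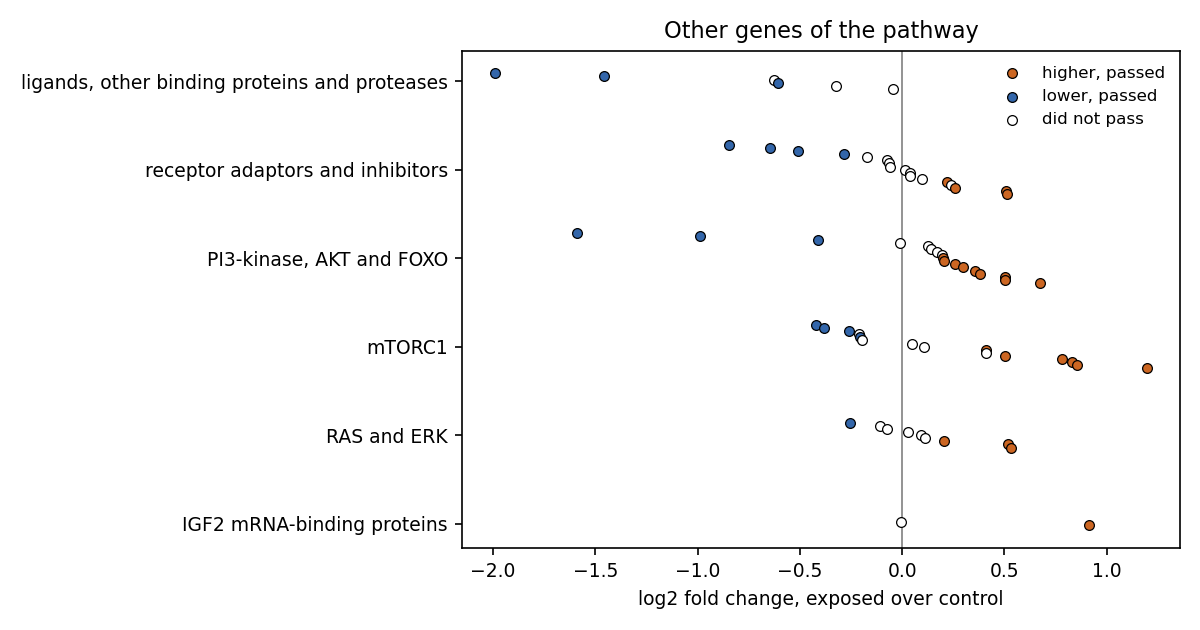
Log2 fold change, exposed over control, of the 66 tested pathway genes that are not among the 10 members, by list, with genes that passed in orange (higher) and blue (lower) and the rest open. The PI3-kinase list spans -1.59 for PIK3R1 to 0.68 for GSK3B, and no passing gene of the ligand list lies above 0.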

How the data were processed

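Libraries were made with NEBNext Ultra reagents from TRIzol-extracted RNA and sequenced on an Illumina NovaSeq, per the labels' protocols. The deposited table holds the authors' whole-number read counts per gene, and the submitters' processing notes name GRCh38 as the build. For the aligner, the counter and the strand setting no source used here gives a name or value. All 58735 gene IDs had the coordinates of GENCODE 29, and the deposited lengths, another column of the authors' table, equal the exon union there.

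Groups came from the sample titles. The replicates are called biological, but separate cultures are not stated, so p-values measure the spread between these samples, which may be technical. Pairs of libraries within a group had, over genes, between 7.11 and 14.9 in chi-square for each degree of freedom.

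Counts were fitted in R 4.3.3 with edgeR 4.0.16 on all 17337 genes kept by filterByExpr (minimum count 10, minimum total 15), with TMM factors (0.948 to 1.04) and a robust quasi-likelihood test, Benjamini-Hochberg adjusted over all genes. The SE is the log2 fold change divided by the square root of F. TPM used the deposited lengths. The script was tested on simulated data in which few genes changed, a setting unlike these data, where 43.9% of genes passed. Alternatives used DESeq2 1.42.0, limma 3.58.1 (voom), other size factors and filters, protein-coding genes alone, the replicate number as a block and each library left out. A correction for GC content and length and the use of principal transcript lengths were chosen after seeing the data. All 10 members are named, as are IGF1, IGF2 and INS, and up to 3 passing genes per pathway list with the smallest adjusted p and at least 1 CPM on average. PAPPA, PIK3R2, RHEB, TSC2, RICTOR, MLST8, EIF4EBP2, AKT1S1 and RPS6KB1 were named after their values were seen. Members and lists were chosen with earlier results of these data known.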

Additional observations from a re-analysis of the deposited data

How the results depend on the processing

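Over 14 alternatives 3 members were higher in each and 4 to 6 lower, and 16 to 27 pathway genes were higher and 12 to 16 lower. The 7 member calls held in each alternative. Leaving out 1 library, IGFBP3 ranged from -0.0704 (log2, without exposed replicate 3) to 0.87 (without exposed replicate 2). IRS1 passed without control replicate 2, with at least 1 CPM in 3 libraries, with protein-coding genes alone and with the GC and length correction (adjusted p = 0.0071, 0.035, 0.042 and 0.042), and IGFBP2 passed with that correction (log2 -0.16, adjusted p = 0.039); the cause was not tested. HRAS and IGF2BP3 also missed the threshold with DESeq2 (adjusted p = 0.052 and 0.066).

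Same-numbered control and exposed libraries did not deviate together (r of -0.07, -0.08 and 0.01 across genes). A differently numbered pair, control replicate 2 with exposed replicate 1, reached 0.12. No pairing by number was thus seen, but a pairing that touches only part of the genes could be missed. With the replicate block 3 members were higher and 4 lower, IGF1R was at -0.32 and IRS1 at -0.19 (log2), and of the named genes HRAS missed the threshold (adjusted p = 0.057). Over all genes 6779 passed with the block against 7610. The 3 ratios kept their direction without each of the 6 libraries; transcript length and the block cannot change these differences. Within replicate numbers the exact p was 0.25, the smallest for 3 pairs. IGFBP3, at 8 to 51 counts, could not be fitted where at least 1 CPM was required.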
